A study of Mus musculus with 19 samples.

Results

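CBFA2T2 chromatin immunoprecipitation sequencing (ChIP-seq) peaks that 2 genotypes share, and that lie inside protein-coding genes away from the gene ends, are described here. A peak of the H3.3WT list was a member if it overlapped a peak of the H3.3K27M list by at least 1 bp and if its summit lay within the span of a RefSeq protein-coding gene and more than 1 kb from every protein-coding gene end. The rule found 806 peaks, which were 14.7% of the 5496 shared peaks (exact 95% interval 13.7 to 15.6%) and 11.6% of the 6920 H3.3WT peaks. The H3.3K27M list held 8272 peaks, and 801 of them lay behind the 806 members. Members were thus chosen by the calls of both peak lists and by their position, so their presence in both lists, their enrichment and their distance from gene ends are given as descriptions without a test.

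The libraries came from NE-4C, a mouse neural stem cell line that lacks p53, in which the H3.3 gene H3f3a had been knocked out in both genotypes. One genotype carried a stable HA-tagged H3.3K27M, in which methionine replaces lysine 27, and the other a stable HA-tagged H3.3 of wild-type sequence (H3.3WT). Each genotype had 1 CBFA2T2 library with a peak list used here, so no difference between genotypes has a replicate check. The series lists 19 libraries, among them some of a Cbfa2t2 knockout in H3.3WT cells, and the other libraries were not analysed here. Read depth of the libraries is unknown, because no counts accompany the peaks.

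CBFA2T2 (MTGR1) belongs to the MTG or ETO family of corepressors. These proteins do not bind DNA by themselves in the usual sense of a transcription factor but are brought to it by factors such as E proteins and bind histone deacetylase complexes with NCoR. The H3.3K27M substitution, known from diffuse midline glioma, blocks methylation of lysine 27 through inhibition of Polycomb repressive complex 2. A protein bound inside a gene can sit at an inner promoter from which a shorter transcript starts, at an enhancer in an intron, or at a small gene nested in the larger one.

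Listed transcript starts were a frequent position among the members. The sequences before 6 such starts are shown because they lie under peaks with some of the highest folds and carry motifs counted further on. They are not typical, as ACTACAA was found in only 9.23% of members' windows. Zfp335, Supv3l1 and Rexo1, whose windows lack ACTACAA, had higher H3.3WT folds than Smarcal1 and Smug1 and are not shown. A start next to a member can be the only listed start of its host, as for Unk, Skp1 and Smarcal1, and need not be an alternative one. Each run holds the 250 bases before a start in the RefSeq table of starts, build GRCm38.p6 (mm10), read 5′ to 3′ on the strand of the transcript. These bases may overlap an exon of a transcript that starts further upstream, as exons were not used here. Capitals mark ACTACAA, a core of the site known for ZNF143, and CCGGAAG, a core known for ETS factors, on either strand.
Gtpbp2: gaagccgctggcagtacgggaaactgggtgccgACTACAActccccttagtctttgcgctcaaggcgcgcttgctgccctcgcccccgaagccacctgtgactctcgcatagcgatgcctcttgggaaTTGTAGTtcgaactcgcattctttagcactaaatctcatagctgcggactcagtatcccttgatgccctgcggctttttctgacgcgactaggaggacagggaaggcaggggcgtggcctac
Unk: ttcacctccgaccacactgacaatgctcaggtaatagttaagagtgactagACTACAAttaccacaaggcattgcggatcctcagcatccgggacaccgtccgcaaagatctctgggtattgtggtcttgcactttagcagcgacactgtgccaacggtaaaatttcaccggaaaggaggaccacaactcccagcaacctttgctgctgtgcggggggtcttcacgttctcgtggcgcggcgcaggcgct
C87436: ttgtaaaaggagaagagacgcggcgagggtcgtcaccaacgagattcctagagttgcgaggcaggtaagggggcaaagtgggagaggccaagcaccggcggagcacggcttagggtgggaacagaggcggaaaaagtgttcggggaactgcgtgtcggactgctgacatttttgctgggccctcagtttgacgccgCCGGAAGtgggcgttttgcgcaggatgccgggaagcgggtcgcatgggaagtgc
Skp1: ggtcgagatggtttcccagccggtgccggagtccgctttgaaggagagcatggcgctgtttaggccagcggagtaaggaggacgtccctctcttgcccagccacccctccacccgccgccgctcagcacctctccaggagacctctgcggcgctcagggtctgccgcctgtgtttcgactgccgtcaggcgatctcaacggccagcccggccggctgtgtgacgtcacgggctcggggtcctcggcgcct
Smarcal1: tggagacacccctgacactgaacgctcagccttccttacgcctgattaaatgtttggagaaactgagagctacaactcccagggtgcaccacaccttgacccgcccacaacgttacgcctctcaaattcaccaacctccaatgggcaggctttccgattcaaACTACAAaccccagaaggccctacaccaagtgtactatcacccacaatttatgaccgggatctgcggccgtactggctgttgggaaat
Smug1: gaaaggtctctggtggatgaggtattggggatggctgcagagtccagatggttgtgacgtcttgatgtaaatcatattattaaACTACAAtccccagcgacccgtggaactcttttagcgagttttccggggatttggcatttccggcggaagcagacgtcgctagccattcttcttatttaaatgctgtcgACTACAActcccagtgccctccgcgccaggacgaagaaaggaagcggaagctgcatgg

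The Gtpbp2 run lies at chr17:46160782-46161031 on the plus strand, and the H3.3WT summit is at its base 119, between its 2 copies of ACTACAA. Gtpbp2 codes for a GTPase that takes part in rescue of stalled ribosomes. The Unk run, chr11:116030066-116030315 on the plus strand, has the summit at base 134 and 1 copy, and Unk codes for Unkempt, a zinc finger protein that binds messenger RNA. The Smug1 run, chr15:103163285-103163534 on the minus strand, has the summit at base 182 and 2 copies, before a listed start of a uracil-DNA glycosylase gene. The Smarcal1 run is at chr1:72583001-72583250 on the plus strand, with the summit at base 237, and this gene codes for an annealing helicase that acts at stalled replication forks. The C87436 run, chr6:86438424-86438673 on the plus strand with the summit at base 159, carries the ETS core. The Skp1 run, chr11:52231745-52231994 on the plus strand with the summit at base 157, carries neither capitalised motif. Skp1 codes for the linker subunit of SCF ubiquitin ligases.

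Enrichment at the members covered a wide range in both lists. The fold is the ChIP signal at a summit over the local background, as the authors' peak caller gave it for each peak of its own list, and it is not a change between genotypes. In the H3.3K27M list the members' folds lay between 2.50 and 48.1 with a median of 6.19 and quartiles of 4.72 and 9.07. In the H3.3WT list they lay between 2.13 and 58.8 with a median of 6.42 and quartiles of 4.91 and 9.05. There were 105 members above 10 fold and 14 above 20 fold in both lists, and 121 were under 5 fold in both. Across the 806 members the folds of the lists had a Spearman correlation of 0.638, against 0.690 across the 4006 shared peaks at gene ends. These peaks share the same pair of libraries, so this value describes the libraries only. Shared peaks at gene ends had median folds of 7.06 in H3.3K27M and 7.12 in H3.3WT, and the 684 shared intergenic peaks had medians of 5.66 in H3.3K27M and 6.02 in H3.3WT. The 761 inner peaks called in H3.3K27M alone had a median of 4.64, and the 425 called in H3.3WT alone had a median of 4.89.

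**Figure D1:**
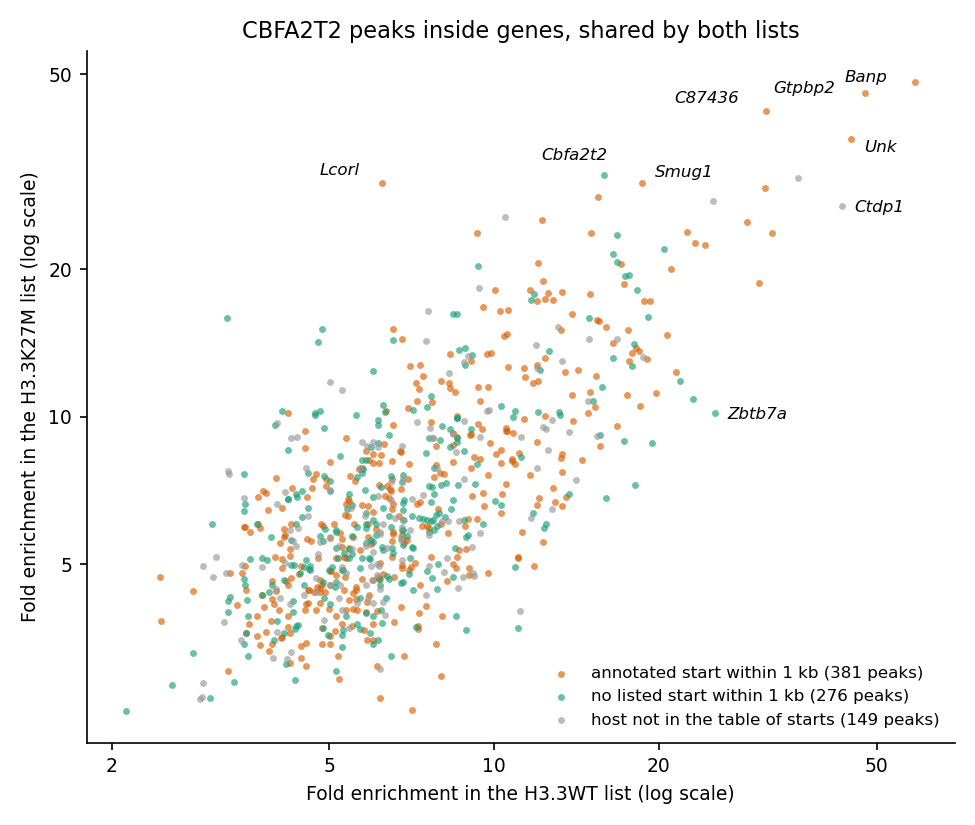
Fold enrichment of each of the 806 members in the H3.3K27M list (vertical axis, log scale) and in the H3.3WT list (horizontal axis, log scale), each point being 1 peak coloured by whether a listed transcript start lies within 1 kb. Banp stands at the top of both lists with 48.1 fold in H3.3K27M and 58.8 in H3.3WT, and Lcorl has 29.9 fold in the H3.3K27M list and 6.23 in H3.3WT, taken at summits 1201 bp apart.

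The peaks lay close together in both lists. Summits were a median of 51 bp apart, and 581 members (72.1%) had summits within 100 bp, against 78.5% of shared peaks at gene ends and 77.9% of shared intergenic peaks. Median widths of the members were 572 bp in H3.3K27M and 498.5 bp in H3.3WT. For 15 members the summits were more than 500 bp apart, and in 10 of these the H3.3K27M peak was over 1 kb wide. The folds of such a member are read at separate points. An example is Lcorl, which codes for a transcriptional corepressor related to LCOR, with 29.9 fold in H3.3K27M against 6.23 fold in H3.3WT. Another is one of the members in Csf2ra, a cytokine receptor subunit gene, which had 15.9 fold in H3.3K27M and 3.24 in H3.3WT at summits 883 bp apart. Its neighbouring member in the same H3.3K27M peak had 15.9 fold in the H3.3K27M list and 14.9 in H3.3WT.

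The strongest member in both lists lay in Banp, chr8:121949782-121950791, with 48.1 fold in H3.3K27M against 58.8 fold in H3.3WT. BANP is itself a protein that binds a CGCG-containing element at CpG-rich promoters. The summit was 434 bp from the start of the non-coding gene Gm27011. The Gtpbp2 member had 45.8 fold in H3.3K27M and 47.6 in H3.3WT, and the Unk member had 36.8 fold in the H3.3K27M list and 45.0 in H3.3WT. These summits were 132 bp and 117 bp from the starts shown above. Ctdp1, which codes for a phosphatase of the RNA polymerase II tail, held a member of 26.9 fold in H3.3K27M against 43.3 fold in H3.3WT. C87436 held one of 42.0 fold in H3.3K27M and 31.4 in H3.3WT, and Tpd52, which codes for a protein of vesicle traffic, held one of 30.7 fold in the H3.3K27M list and 36.0 in H3.3WT. The summits of each of these 6 members lay no more than 40 bp apart in the lists. Skp1 had 29.3 fold in H3.3K27M against 31.3 fold in H3.3WT, and Zfp335, a zinc finger gene needed for neural progenitors in mice, had 23.7 fold in H3.3K27M and 32.2 in H3.3WT. Supv3l1, a mitochondrial RNA helicase gene, had 18.7 fold in the H3.3K27M list and 30.5 in H3.3WT. Smug1 had 29.9 fold in H3.3K27M against 18.6 fold in H3.3WT, and Mrpl24, a mitochondrial ribosomal protein gene, had 28.1 fold in H3.3K27M and 15.5 in H3.3WT. The uncharacterised gene 1700008O03Rik had 24.9 fold in the H3.3K27M list and 29.0 in H3.3WT, at a summit 415 bp from the start of the non-coding gene Gm39001.

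Strength by fold and strength by q did not coincide everywhere. Slc4a4, which codes for a sodium bicarbonate cotransporter, held a member with only 6.70 fold in H3.3K27M against 7.67 fold in H3.3WT, but with −log10 q of 201 in H3.3K27M and 183 in H3.3WT. This peak was 1976 bp wide in H3.3K27M and 1951 bp wide in H3.3WT. A second member in Slc4a4 had the lowest fold of all members in each list, 2.50 in H3.3K27M and 2.13 in H3.3WT. The members with the lowest −log10 q in H3.3WT lay in Prdm2, Hnrnph1 and Csf2ra, at 1.35, 1.38 and 1.53.

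Transcript starts were listed next to many members. The table of starts used here gives 32851 starts of 27025 genes, and it holds 592 of the 732 host genes, which are 3.34% of 21887 protein-coding genes. A listed start lay within 1 kb of the H3.3WT summit for 381 members (47.3%, exact 95% interval 43.8 to 50.8%), within 250 bp for 303 and within 100 bp for 199. The median distance of those 381 was 89 bp, with 199 summits upstream of the start, 181 downstream and 1 on it. For 364 members a start of the host gene itself lay within 1 kb, and for the other 17 the start belonged to a non-coding gene only. Of the 364, 208 lay in hosts with 1 listed start and 156 in hosts with several. A further 276 members had no listed start within 1 kb, and for 149 the host gene was not in the table and no start was found either. Among the 649 members with a host in the table, 57.5% had a start within 1 kb.

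The members' share next to a start stood between those of gene-end and intergenic peaks, an order that the class rule partly sets. Gene-end summits lie within 1 kb of a protein-coding gene end by rule. Intergenic summits lie outside every protein-coding span and over 1 kb from its ends, which leaves only non-coding starts within 1 kb. It was 47.3% among the members, 82.4% among shared peaks at gene ends (81.2 to 83.5%) and 11.5% among shared intergenic peaks (9.25 to 14.2%). Among inner peaks called in a single list it was 28.3% for H3.3K27M (25.1 to 31.6%) and 20.7% for H3.3WT (17.0 to 24.9%). These exact intervals cover counting error only and are no test. As a background, 475 of the 6671 listed starts that lie inside genes and over 1 kb from every gene end had a member within 1 kb, which is 7.12%. Of the 18883 listed starts near a gene end, 4748 had a shared end peak within 1 kb, which is 25.1%.

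**Figure D2:**
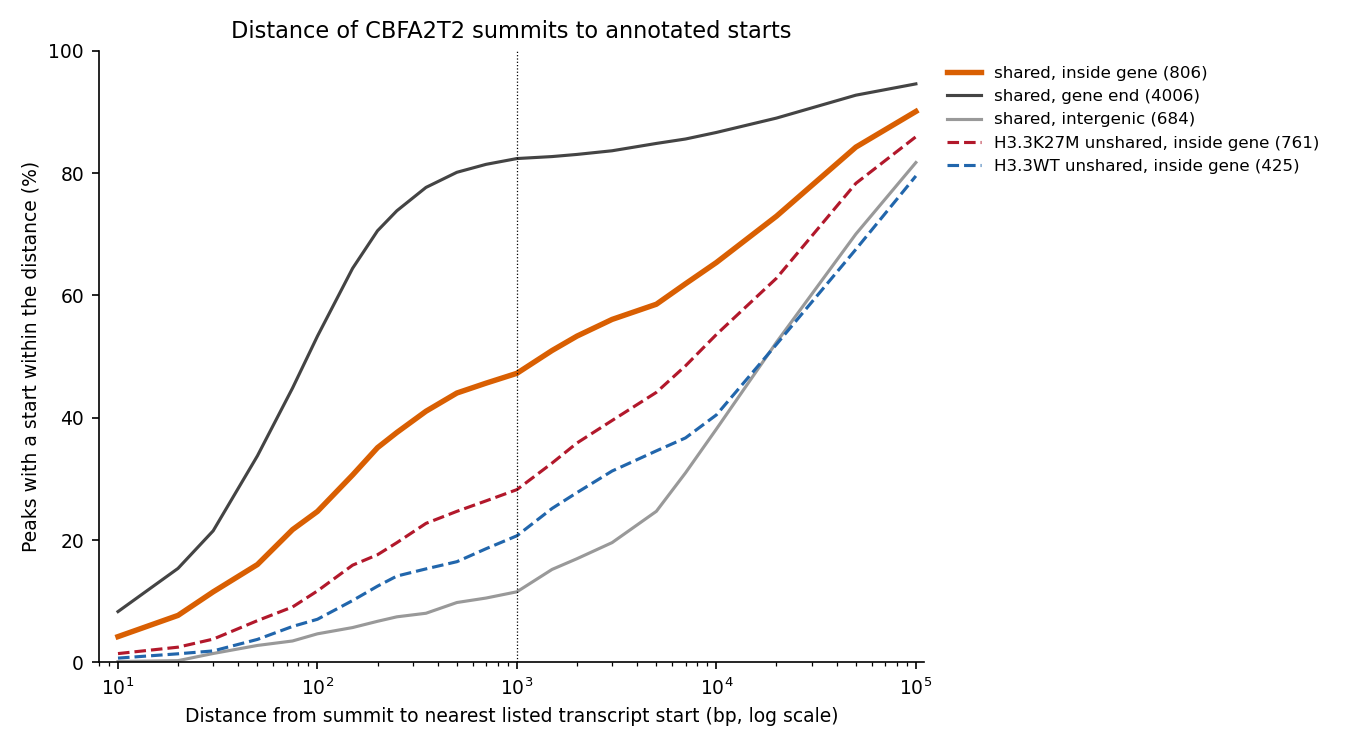
Percentage of peaks (vertical axis) whose H3.3WT summit, or H3.3K27M summit for peaks called in H3.3K27M alone, lies within a given distance of the nearest listed transcript start (horizontal axis, bp, log scale). Each line is a class of peaks with its number. At the dotted line of 1 kb the members stand at 47.3%, shared gene-end peaks at 82.4% and shared intergenic peaks at 11.5%. The classes are defined by distance from protein-coding gene ends, which partly sets this order.

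Members at a start lay in shorter hosts by median than members without one. The 381 members at a start had median folds of 6.57 in H3.3K27M and 6.76 in H3.3WT, and a median host span of 34.2 kb. The 276 members with no listed start within 1 kb had medians of 6.13 in H3.3K27M and 6.18 in H3.3WT, in hosts with a median span of 94995 bp. Above 10 fold in both lists were 17.3% of members at a start and 9.78% of those with none. Of 273 members without a start whose host has a strand in the table, 115 lay in the first part of the gene when its length is divided into 3 equal parts, 86 in the middle part and 72 in the last. The median place was 38.8% of the way along the gene.

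Some members without a listed start within 1 kb were strong. Zbtb7a, which codes for the repressor LRF, had 10.2 fold in H3.3K27M and 25.3 in H3.3WT at a summit 12.6% along the gene. That summit lay 1095 bp from a listed Zbtb7a start, just beyond the limit of 1 kb, in a peak 1476 bp wide in H3.3WT. Thsd4, a gene for a protein of the extracellular matrix, had 10.8 fold in the H3.3K27M list and 23.1 in H3.3WT. Zfp365, a zinc finger gene, had 11.8 fold in H3.3K27M against 21.9 fold in H3.3WT. These 3 had higher folds in the H3.3WT list than in the H3.3K27M list, but each fold is relative to the background of its own library. They were named after their values were seen. Among members with no listed start within 1 kb and above 10 fold in both lists, they had the highest H3.3WT folds. Such a ranking favours a higher fold in H3.3WT. The Cbfa2t2 gene itself held 2 members, 31.1 fold in H3.3K27M and 15.9 in H3.3WT at 95.8% along the gene, and 13.3 fold in the H3.3K27M list and 9.12 in H3.3WT at 29.2% along it. The stronger of these was narrow, 327 bp wide in H3.3K27M and 317 bp in H3.3WT.

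Base composition and short motifs were compared in the 300-base windows of the table, 250 bases before and 50 after a start. A member's summit lay within 271 windows, which hold 234 members. Their median GC content was 62.3% with a median of 25 CpG per window, against 61.3% and 24 CpG in the 2997 windows with a summit of a shared gene-end peak and 52.7% and 7 CpG in all 32851 windows. Windows with a peak were thus richer in GC and CpG than the whole table, and the part of this in the motif shares was not tested. The letters were searched on both strands, and a match is a description of the sequence and not a bound factor.

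The ETS core CCGGAAG was found in 29.5% of members' windows, 35.5% of gene-end windows and 8.86% of all windows. The ZNF143 core ACTACAA, which holds no CpG, was found in 9.23%, 11.5% and 3.24% in the same order. YY1 (AAGATGGCG) gave 5.54%, 6.21% and 1.40%, and NRF1 (GCATGCGC) gave 5.54%, 7.91% and 2.71%. These are motifs known from broadly active promoters, and no difference between the sets was tested. The element of BANP (TCTCGCGA) gave 3.69%, 4.70% and 0.995%, the cyclic AMP response element (TGACGTCA) 5.17%, 5.67% and 1.79%, and the SP box (GGGCGGGG) 29.2%, 28.3% and 17.6%. The CCAAT box (CCAAT) stood at 27.7% in members' windows, 40.01% in gene-end windows and 37.4% in all windows. For the E-boxes, which E proteins known to bind MTG corepressors recognise, CAGCTG gave 12.2%, 11.8% and 16.3% and CAGGTG 13.3%, 13.5% and 20.2%. RUNX (TGTGGT) gave 9.59%, 12.0% and 16.8%, and the TATA box (TATAAA) gave 5.17%, 4.64% and 13.6%. The members' exact 95% interval for CAGCTG, 8.53 to 16.7%, holds the share of all windows. The intervals for CAGGTG (9.48 to 17.9%), RUNX (6.36 to 13.7%), TATA (2.85 to 8.52%) and CCAAT (22.4 to 33.4%) lie below that share. Those of the remaining motifs lie above it, and the intervals are no test. They treat each window as independent, although the 271 windows hold only 234 members, so they can be too narrow. The share of all windows also includes the members' windows. Copies of different motifs may overlap.

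Peaks over windows with ACTACAA had higher folds by median. The 23 members with it had median folds of 13.4 in H3.3K27M and 13.2 in H3.3WT, and the 211 without it 6.94 in H3.3K27M and 6.79 in H3.3WT. At gene ends, 286 shared peaks with it had medians of 11.6 in H3.3K27M and 12.2 in H3.3WT, and 2091 without it had 7.21 in H3.3K27M and 7.40 in H3.3WT. For the ETS core the 73 members with it had medians of 7.57 in H3.3K27M and 8.28 in H3.3WT, and the 161 without it 6.80 in H3.3K27M and 6.78 in H3.3WT. At gene ends the ETS medians were 7.67 in H3.3K27M and 8.20 in H3.3WT with it, and 7.52 in H3.3K27M and 7.44 in H3.3WT without it. The 11 members with the TATA letters had medians of 12.1 in H3.3K27M and 9.56 in H3.3WT, and the 223 without them 7.16 in H3.3K27M and 7.02 in H3.3WT. Among shared gene-end peaks, the 123 with the TATA letters had medians of 7.52 in H3.3K27M and 7.998 in H3.3WT. The 2254 gene-end peaks without them had 7.59 in H3.3K27M and 7.74 in H3.3WT. The TATA medians at gene ends thus lay close together, unlike those of the 11 members. The 13 members with the YY1 letters had 8.78 in H3.3K27M and 10.8 in H3.3WT. The 221 members without them had 7.10 in H3.3K27M and 7.02 in H3.3WT. The SP box went the other way, with 5.99 in H3.3K27M and 6.23 in H3.3WT for the 67 members with it and 7.69 in H3.3K27M and 7.67 in H3.3WT for the 167 without. These are descriptions of the enrichment that chose the members, and the motifs were chosen with the values known.

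**Figure D3:**
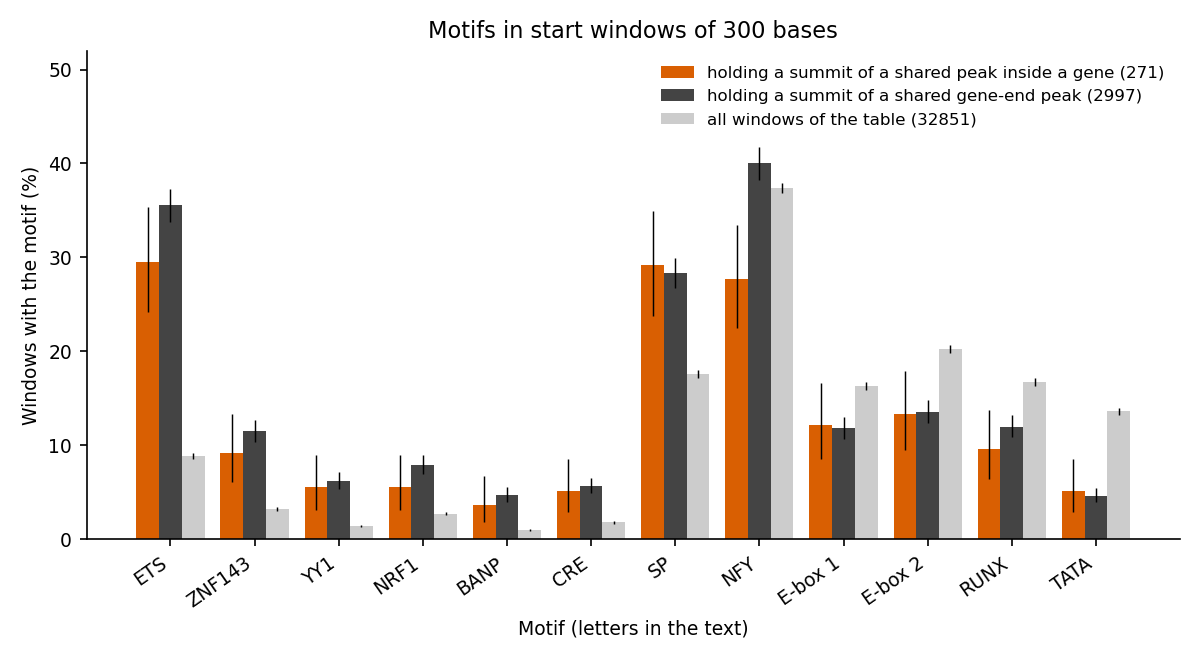
Percentage of start windows of 300 bases (vertical axis) that hold each motif on either strand, for windows with a member's summit (orange), windows with a summit of a shared gene-end peak (dark) and all windows of the table (light). Bars start at 0 and lines are exact 95% intervals that treat each window as independent. E-box 1 is CAGCTG and E-box 2 is CAGGTG, and the ZNF143 core stands at 9.23%, 11.5% and 3.24%.

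Most of the 732 hosts held a single member. There were 672 hosts with 1 member, 47 with 2, 8 with 3, 2 with 4, 2 with 5 and 1 with 6. Hosts were long, with a median span of 46.1 kb against 17.2 kb for all protein-coding genes, and no count here is adjusted for length. A peak at a gene end was also called for 24.3% of hosts in H3.3K27M and 18.7% in H3.3WT, against 28.6% of all protein-coding genes in H3.3K27M and 24.8% in H3.3WT. The members' median distance from the nearest gene end was 5416 bp, and 304 (37.7%) lay over 10 kb from every end, against 45.9% of inner peaks called in H3.3K27M alone and 58.6% of those called in H3.3WT alone. Tenm3, a teneurin gene of neuronal adhesion, held the farthest member, 617573 bp from any end, with 4.65 fold in H3.3K27M against 6.18 fold in H3.3WT. Pard3b, Sgcd, a second member in Tenm3 and Rbfox1 followed, the last with 9.91 fold in H3.3K27M and 8.56 in H3.3WT.

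Peaks on both sides of the 1 kb limit had folds of the same order. Just inside it lay a member near Jund, an AP-1 subunit gene, at 1002 bp with 5.69 fold in the H3.3K27M list and 6.93 in H3.3WT. Zfp959 followed at 1009 bp with 7.16 fold in H3.3K27M against 12.8 fold in H3.3WT, and Colgalt1 at 1012 bp with 4.8 fold in H3.3K27M and 9.73 in H3.3WT. Just outside it lay peaks at Srsf1, at 1000 bp with 6.89 fold in the H3.3K27M list and 8.47 in H3.3WT, at Sft2d3, also at 1000 bp with 5.97 fold in H3.3K27M against 5.29 fold in H3.3WT, and at Ccdc17, at 996 bp with 4.37 fold in H3.3K27M and 5.53 in H3.3WT.

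Tex14, a gene of germ cell bridges, held the most members, and none of its 6 summits lay at its own start. Each lay 7 to 101 bp from the end of a small RNA gene nested in the Tex14 span. Named as the annotation has them, and typed there as small nuclear RNA genes, these were Rnu1a1, a U1 gene, Gm22068, and the U3 genes Rnu3b1, Rnu3b3, Rnu3b4 and Rnu3b2. Folds at these were 23.5, 19.4, 19.4, 22.0, 20.6 and 20.3 in H3.3K27M, and 16.8, 17.3, 17.7, 20.4, 16.8 and 9.33 in H3.3WT. All 6 were thus far above the members' median in H3.3K27M, and 5 of them had between 16.8 and 20.4 fold in H3.3WT. U1 and U3 genes have near-identical copies, so the placement of reads among them is uncertain. Another 2 small nuclear RNA genes lay next to a member, Gm22265 in Hhat with 10.3 fold in the H3.3K27M list and 10.9 in H3.3WT, and LOC115489800 in BC107364 with 12.3 fold in H3.3K27M against 13.5 fold in H3.3WT.

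Small and non-coding genes were near 89 members (11.04%) in all, within 1 kb of an end of a non-coding gene or pseudogene. Of these 70 were next to a long non-coding RNA gene, 8 to a small nuclear RNA gene, 5 to a microRNA gene, 3 to a pseudogene and 1 each to a transfer RNA, an antisense and another RNA gene. The share was 14.3% at shared gene-end peaks and 23.8% at shared intergenic peaks, and among inner peaks called in a single list 9.33% for H3.3K27M and 5.41% for H3.3WT. A listed start was also within 1 kb for 64 of the 89. The 5 microRNA genes were Mir1955 in Phf21a, Mir6546 in Fcgr3, Mir7653 in Tlcd1, Mir1894 in Ppp1r10 and Mir1893 in Epc1. Phf21a, which codes for the BHC80 subunit of a neuronal gene corepressor complex, had 17.3 fold in H3.3K27M and 11.7 in H3.3WT at a summit 26 bp from the end of Mir1955. In Polg the transfer RNA gene n-TRtcg5 lay 245 bp from a member of 5.95 fold in the H3.3K27M list and 3.51 in H3.3WT.

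Other hosts with many members differed in how these were spread. Rnf220, a ubiquitin ligase gene that acts in neural development, held 5 over its span of 226 kb, the strongest with 9.15 fold in H3.3K27M against 15.6 fold in H3.3WT at a summit 1787 bp from a listed Rnf220 start. Kdm6b, the gene of the H3K27 demethylase JMJD3, held 5 within its span of 21.9 kb, with folds of 5.30, 4.39, 5.24, 9.06 and 9.06 in H3.3K27M and 5.998, 4.72, 4.77, 9.44 and 4.36 in H3.3WT. The last pair of these fall in the same H3.3K27M peak, 2221 bp wide, so its fold is counted at both. Pknox2, a TALE homeobox gene, held 3, the strongest with 27.6 fold in H3.3K27M and 25.1 in H3.3WT. Casz1, Impact, Nrxn2 and Ptprg also held 3 each, and the Ptprg members lay at 16.0%, 16.6% and 17.1% along that gene.

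**Figure D4:**
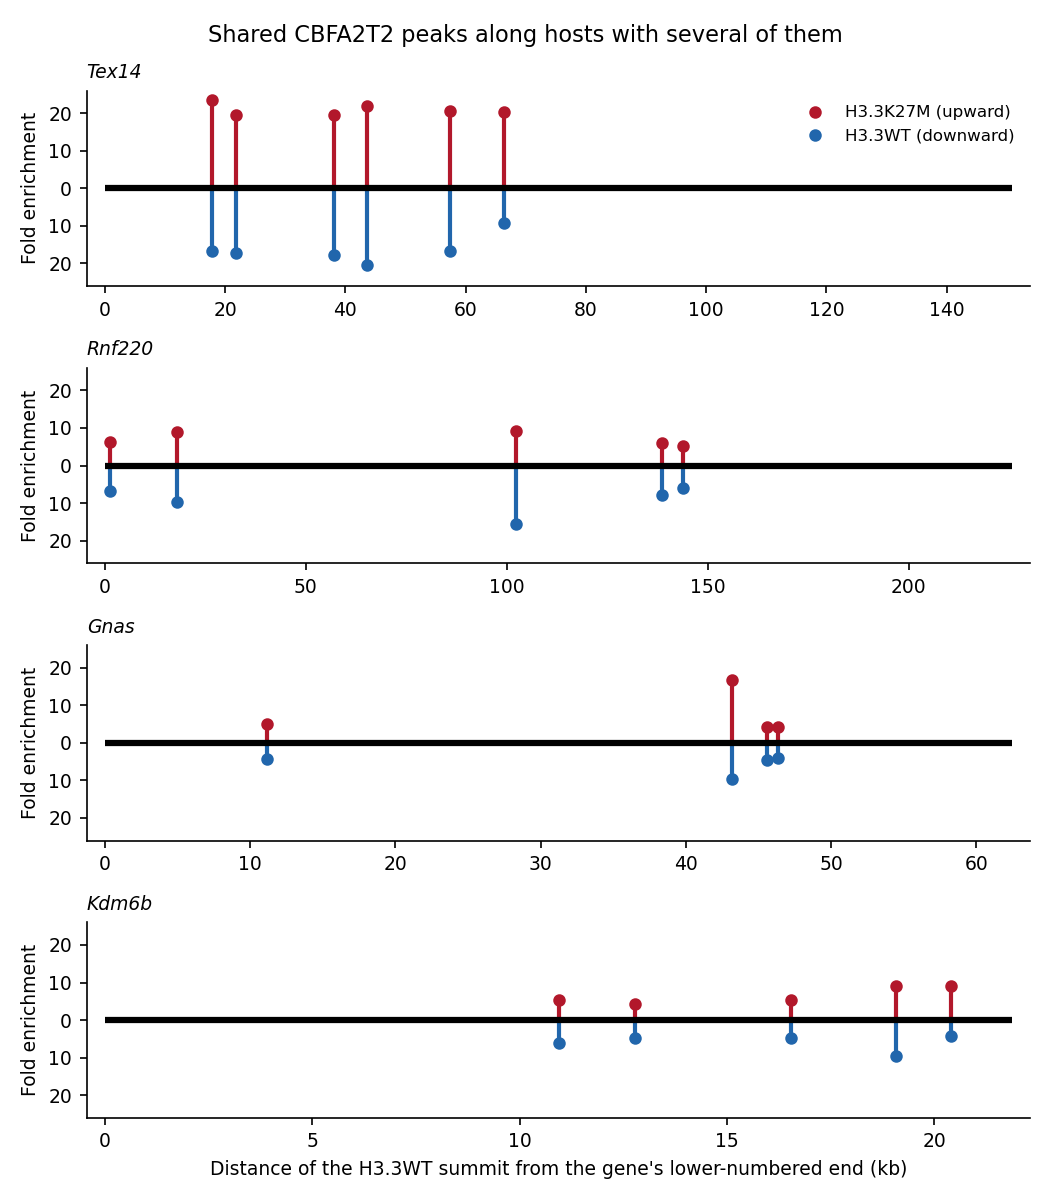
Fold enrichment of the members in 4 hosts, upward for H3.3K27M and downward for H3.3WT, against the distance of the H3.3WT summit from the lower-numbered end of the gene (kb). Each dot is 1 member and the black bar is the gene span. The 6 Tex14 members have 19.4 to 23.5 fold in H3.3K27M, and the 5 Kdm6b members lie in the right part of a much shorter gene.

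Gnas and Snrpn, imprinted genes in which methylation laid down in a germ line sets the expressed parental copy, held 4 members each. In Gnas the strongest had 16.7 fold in the H3.3K27M list and 9.56 in H3.3WT, 249 bp from a listed Gnas start and 113 bp from an end of the non-coding gene Gm30189. Another had 4.98 fold in H3.3K27M against 4.30 fold in H3.3WT, 49 bp from an end of the antisense gene Gnasas1. In Snrpn the folds were 6.71, 6.04, 8.44 and 4.60 in H3.3K27M and 10.0, 12.4, 7.50 and 6.82 in H3.3WT, with the first pair 1231 and 2952 bp from the nearest listed start, that of Snurf. Of 23 imprinted genes with a germline-methylated region, a list chosen after the values were seen, 6 (26.1%) held a member. These 6 also included Kcnq1, Grb10, Impact and Zdbf2. Among all protein-coding genes the share was 3.34%. The median span of the 23 genes was 61.1 kb, against 17.2 kb for all protein-coding genes. As the list was picked with the values known, its share is no result about imprinted genes. Grb10, a growth factor receptor adaptor gene, had 13.7 fold in H3.3K27M and 8.61 in H3.3WT, 1553 bp from a listed Grb10 start. The data give no parental copy for any of these peaks.

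Of the 690 genes in 24 lists of pathways and cell types, 65 (9.42%) held a member, against 3.34% of all protein-coding genes. The lists were chosen with earlier results of these data known, and no count is adjusted for gene length. The higher share in the lists therefore cannot be read as an excess. The median span of a list's genes ran between 3.23 kb for ribosomal proteins and 121 kb for axon guidance, and the counts carry no test. Where a listed gene held several members, its values are those of the member with the highest −log10 q in H3.3WT. Of 14 genes of H3.3 and its chaperones, 5 held a member, all next to a listed start of the gene. H3f3b, the remaining H3.3 gene in cells without H3f3a, had 3.77 fold in the H3.3K27M list and 5.998 in H3.3WT. Zmynd11, a reader of methylated H3.3, had 7.40 fold in H3.3K27M against 5.57 fold in H3.3WT. Nasp, a histone chaperone gene, had 5.20 fold in H3.3K27M and 4.24 in H3.3WT, and Dek had 4.41 fold in the H3.3K27M list and 4.00 in H3.3WT. Smarcal1, with 22.6 fold in H3.3K27M against 23.3 fold in H3.3WT, is also in this list, although it is known as a helicase and not as a chaperone.

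Corepressor genes were next, with 7 of 31 genes of the HDAC, NCoR, SIN3 and NuRD list. Sin3a, a scaffold of histone deacetylase complexes, had 5.60 fold in H3.3K27M and 6.95 in H3.3WT. The Groucho family genes Tle1, Tle3 and Tle4 each held a member, with 5.73, 4.03 and 5.47 fold in H3.3K27M and 8.95, 6.21 and 6.80 fold in H3.3WT, none of them at a listed start. Tbl1x and Gatad2a were also among them. In the list of MTG proteins and their partners 2 of 24 genes held a member, Cbfa2t2 and Ldb1. The Cbfa2t2 relatives Cbfa2t3 and Runx1t1 held none.

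Among demethylases of H3K27 and other enzymes that use 2-oxoglutarate, 5 of 30 genes held a member. Kdm6a, the gene of the X-linked H3K27 demethylase UTX, had 5.49 fold in H3.3K27M against 5.96 fold in H3.3WT, 99 bp from a listed start. Tet3 had 10.2 fold in H3.3K27M and 6.33 in H3.3WT and Tet1 had 6.67 fold in the H3.3K27M list and 6.80 in H3.3WT, both genes for enzymes that oxidise 5-methylcytosine and neither at a listed start. Kdm6b and Kdm4c completed this group. Of 33 Polycomb genes 3 held a member. These were Bcorl1 with 15.1 fold in H3.3K27M against 4.84 fold in H3.3WT, Aebp2 with 7.64 fold in H3.3K27M and 4.73 in H3.3WT, and Cbx7 with 6.03 fold in the H3.3K27M list and 4.34 in H3.3WT.

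Splicing factors and hnRNPs gave 7 of 34 genes, and U2af2, a subunit of the factor that recognises the end of introns, had 9.07 fold in H3.3K27M against 11.2 fold in H3.3WT. Hnrnpu had 10.6 fold in H3.3K27M and 6.27 in H3.3WT. The list of p53 targets and apoptosis gave 5 of 25, Plk3, Bcl2l1, Mcl1, Mdm4 and Bbc3, in cells that lack p53. Mdm4, an inhibitor of p53, had 5.02 fold in the H3.3K27M list and 6.19 in H3.3WT at a listed start. Bcl2l1, which codes for the survival protein BCL-XL, had 2.52 fold in H3.3K27M against 7.08 fold in H3.3WT. Its H3.3K27M peak had a −log10 q of only 1.51, close to the smallest of that list, 1.31. Ribosomal protein genes gave 3 of 36, all at a listed start, with Rps2 at 12.1 fold in H3.3K27M and 15.3 in H3.3WT.

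Of 40 genes of neural stem cells and Notch signalling, 4 held a member. None of these lay at a listed start, but Msi1 and Fgfr1 are not in the table of starts, so no start of theirs could be found. Nes, which codes for the intermediate filament nestin, had 6.44 fold in the H3.3K27M list and 6.81 in H3.3WT, and Msi1, an RNA-binding protein gene of progenitors, had 4.96 fold in H3.3K27M against 6.16 fold in H3.3WT. Fgfr2, a fibroblast growth factor receptor gene, had 6.94 fold in H3.3K27M and 13.7 in H3.3WT, and Fgfr1 had 3.05 fold in the H3.3K27M list and 6.18 in H3.3WT. Hippo pathway genes gave 3 of 25, with Fat1, an atypical cadherin gene, at 7.24 fold in H3.3K27M against 18.1 fold in H3.3WT. No member lay in the 30 genes of cell adhesion, integrins and matrix, the 21 neuron markers, the 17 astrocyte and oligodendrocyte markers or the 21 markers of mesenchyme, muscle, blood and liver. As only 3.34% of all protein-coding genes held a member, lists this small can lack one at that share, and the empty lists show no contrast between cell types. Peaks do not measure expression, so the labelled cell type could not be checked against its markers.

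Other lists held few hosts. Axon guidance gave 3 of 30 (Efna5, Sema6a and Ephb2), cholesterol and fatty acid synthesis 3 of 30 (Acaca, Pmvk and Fdft1), and oxidative phosphorylation 3 of 36. Wnt signalling gave 2 of 31, Axin2 and Bcl9, both at a listed start. Glycolysis gave 2 of 28, the AP-1 and immediate early list 2 of 40, and the BMP, ATF4 and tricarboxylic acid lists 1 each, of 30, 26 and 36 genes.

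**Figure D5:**
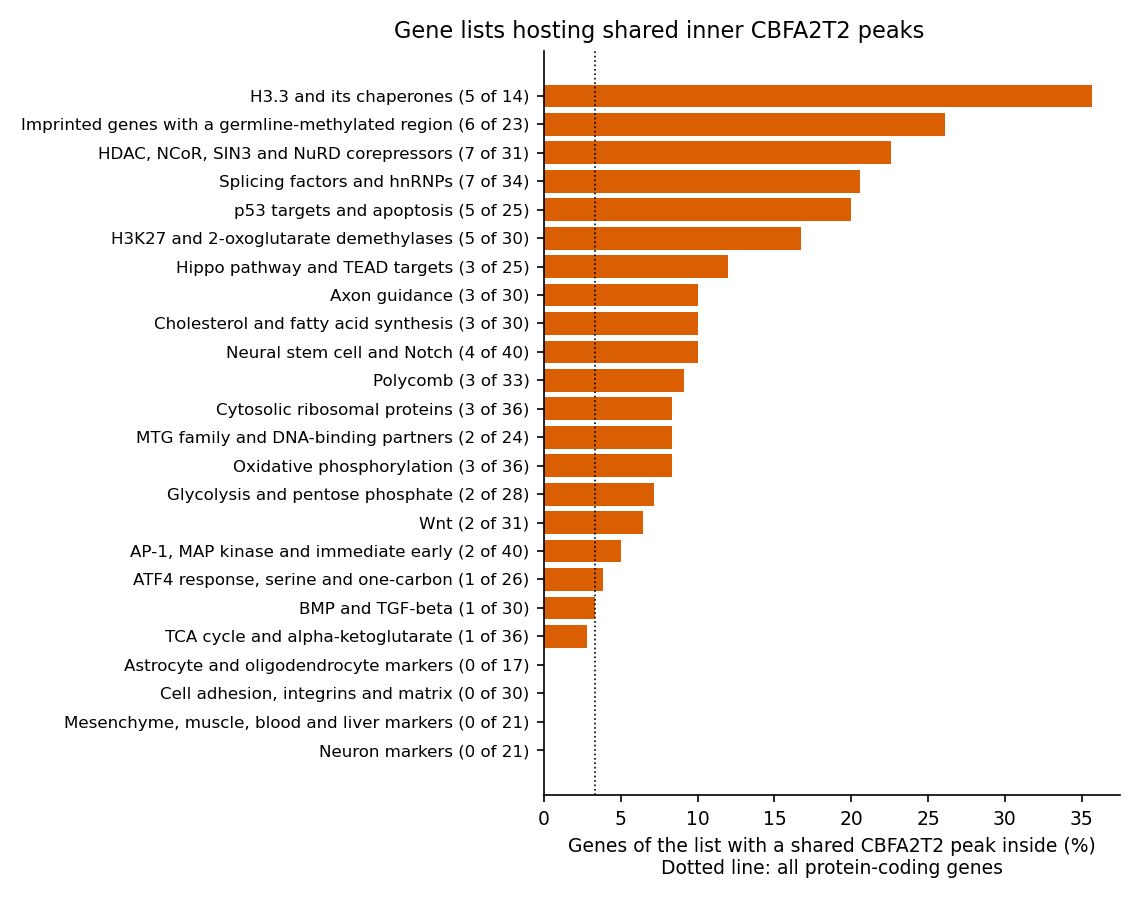
Percentage of the genes in each list shown that hold at least 1 member (horizontal axis), with the count in brackets. The dotted line marks the 3.34% of all protein-coding genes, and the bars run between 0% in 4 lists and 35.7% for H3.3 and its chaperones. The list of imprinted genes was added after the values were seen. The other lists were chosen with earlier results of these data known, and no bar is adjusted for gene length.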

How the data were processed

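CBFA2T2 ChIP-seq had been performed on HA-tagged H3.3K27M and H3.3WT cells, 1 library per genotype, and groups followed the titles in the labels. Per the submitters' processing notes, Trim Galore served for trimming and MACS2 for peak calling on mm10, without versions. How reads were aligned and duplicates treated is not given in the sources used here, nor are the caller's settings. Each peak carries a fold ratio at the summit and −log10 p and −log10 q, all used as deposited by the authors; the deposited score column was not used. The smallest deposited −log10 q, 1.31 in H3.3K27M and 1.33 in H3.3WT, matches a q of 0.05, which leaves out weaker sites, and a deeper library yields more and weaker peaks, so folds are set side by side and never divided.

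Gene spans and transcript starts came from RefSeq tables of GRCm38.p6, the mm10 assembly, and coordinates are 1-based. The spans hold no exons, the table of starts holds 17492 of 21887 protein-coding genes and not every start of these, and no start on chromosome 18, where 15 members lie. Motifs were searched in its windows only, as no genome sequence was used. Peaks were read with Python 3.11.15, pandas 2.3.3 and SciPy 1.17.1, and figures drawn with matplotlib 3.10.9. A member's H3.3K27M values are those of the overlapping peak with the highest −log10 q; 6 members overlapped 2. Where spans overlapped, a member counted for each host, which concerns 8 members. Classing was tested on simulated peaks. Intervals are exact (Clopper-Pearson) 95% intervals that cover counting error, and peaks are not replicates.

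Named genes were the 10 members of highest fold in each list, the 10 of best summed rank by q, the 10 hosts with most members, the 5 farthest from gene ends, the 5 widest, the 3 of lowest q, 3 on each side of the limit, the 10 highest at non-coding ends, up to 4 per gene list, Cbfa2t2, its relatives, H3f3b, Kdm6a and Kdm6b. Some of these, and 1 gene list, are not reported here. Other names, the imprinted list, the division by starts and the motifs were chosen after values were seen, and the members and all lists were chosen with earlier results of these data known. Alternatives were stricter peaks, equal list lengths, other overlaps, limits and filters.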

Additional observations from a re-analysis of the deposited data

How the results depend on the processing

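No paired analysis was possible because each genotype had 1 library. Of 134 comparisons of 12 values with an alternative, 106 stayed within the interval of the value (within 1.5 times for counts). A filter for repeat-like peaks, with a fold under 3 and a −log10 q of at least 20, left all 806 members. Its comparisons of members could thus not move, and they are among the 106. Several alternatives likewise kept all 23 members with ACTACAA, so the 106 overstate how far the values were tried. With a fold of at least 5 in both lists there were 469 members in 438 hosts, 13.5% of shared peaks lay inside genes, median folds were 8.15 in H3.3K27M and 8.30 in H3.3WT, summits lay within 100 bp in 82.7% and 4.49% of listed genes held a member. With a −log10 q of at least 5 the medians were 7.09 in H3.3K27M and 7.33 in H3.3WT, and these shares were 79.4% and 7.10%. With over 3 kb to every gene end there were 527 members in 467 hosts, 9.59% of shared peaks lay inside genes, 57.7% of members lay over 10 kb from an end, 36.1% had a start within 1 kb and 6.09% of listed genes held a member. With over 500 bp, 18.6% of shared peaks lay inside genes, 29.7% of members lay over 10 kb from an end and 53.2% had a start within 1 kb. Without members near non-coding ends, 13.05% of shared peaks lay inside genes. A reciprocal overlap of 50% gave a median of 6.78 in H3.3WT and summits within 100 bp in 77.5%, and summits within 200 bp gave a median of 6.51 in H3.3K27M and 81.1%. With equal list lengths the H3.3K27M median was 6.51. A start lay within 250 bp of 37.6% of members, and within 1 kb of 57.5% of those whose host is in the table; alternatives for starts and ACTACAA were added after the values were seen. The cause of these moves was not tested. The count of inner peaks thus rests on the limit of 1 kb and on weak peaks. Depth is unknown, weak sites can be missing from a list, and starts not in the table leave the share at a start a lower count.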
